A study of Mus musculus with 42 samples.

Results

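Gene expression was examined in wild-type (WT) mouse bone marrow-derived macrophages after 8 h with dexamethasone (Dex), a synthetic glucocorticoid. The comparison used all libraries labelled Dex, WT, 8 h and all libraries labelled vehicle, WT, 8 h, which gave 6 of the 42 libraries in the series, 3 per group, and all 11160 genes of the deposited table. Marrow cells had been differentiated with recombinant M-CSF (50 ng/ml) for 6 days, then detached and replated, and 1 µM Dex or vehicle was added on the next day. The 2 main groups were WT macrophages with 1 µM Dex for 8 h and WT macrophages with vehicle for 8 h. The same pair of treatments at 2 h and at 24 h in WT cells, the same pair at 8 h in MS4A4A knockout (KO) cells, and untreated WT cells at 0 h were used where the effect was compared across time or genotype. Age, sex and strain of the mice, the allele in the KO cells and the composition of the vehicle do not appear in the labels. The labels do not say whether replicates came from separate mice or cultures. The p-values therefore measure the spread between libraries of a group, estimated over all 42 libraries, and this spread may be technical.

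Dexamethasone enters cells and binds the glucocorticoid receptor, a nuclear receptor (encoded by Nr3c1) that is held in the cytoplasm by a heat shock protein complex. The bound receptor moves to the nucleus, where it raises transcription at DNA sites built of inverted hexamer half-sites and lowers the activity of the inflammatory factors NF-kB and AP-1. In macrophages glucocorticoids are known for lowering cytokine and chemokine production and for raising scavenger and efferocytosis receptors such as CD163 and MERTK.

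Promoter windows of 5 genes that Dex raised are shown because they hold inverted half-sites of the kind the receptor is known to bind. RefSeq promoters (GRCm38.p6, 250 bases before to 50 bases after the start) were available for 9003 of the genes in the table, or 80.7%. The motif searched was the half-site GNACA followed, after 3 bases of any kind, by its own reverse complement, so that it reads the same on both strands. It was present in 24 of these promoters (0.267%), against 145 of 27025 genes in the whole RefSeq table (0.537%). It occurred in 8 of 1818 promoters of genes called higher after Dex (0.44%), in 0 of 1519 promoters of genes called lower and in 16 of 5666 promoters of genes not called (0.282%). The longer palindrome, built in the same way from the half-site AGAACA and overlapping the first, was present in a single promoter of the table, that of Sgk1. In the following windows, 5′ to 3′ on the strand of the gene, capitals mark the 13 letters of the match with 20 bases on either side.
Map3k6: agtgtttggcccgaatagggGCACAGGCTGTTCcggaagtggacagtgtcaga
Mt1: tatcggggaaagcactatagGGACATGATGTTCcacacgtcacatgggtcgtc
Sgk1: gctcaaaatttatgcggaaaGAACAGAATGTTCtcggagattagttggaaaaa
Suox: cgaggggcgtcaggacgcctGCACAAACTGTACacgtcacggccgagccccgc
Txnip: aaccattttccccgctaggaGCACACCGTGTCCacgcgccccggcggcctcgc

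The Map3k6 window lies at chr4:133240617-133240669 on the plus strand, and its motif is 169 bases before the start site. The Mt1 window lies at chr8:94178975-94179027 on the plus strand, and its motif is 82 bases before the start. The Sgk1 window lies at chr10:21993682-21993734 on the plus strand, and its motif is 176 bases before the start. The Suox window lies at chr10:128673932-128673984 on the minus strand, with its motif 34 bases before the start, and the Txnip window at chr3:96557765-96557817 on the plus strand, with its motif 160 bases before the start. These 5 had the largest rises among the 8 genes called higher with a match, and Map3k6, Mt1 and Suox were chosen after their values were seen. Levels are in CPM (counts scaled by the total count of each library times a normalization factor). Map3k6, a MAP kinase kinase kinase, had 54.3, 53 and 38.8 CPM in the Dex libraries, against 4.04, 3.81 and 3.94 CPM in the vehicle libraries. Mt1, the metal-binding protein metallothionein 1, had 275, 221 and 199 CPM with Dex and 95.8, 99.9 and 71.7 CPM with vehicle. Suox, the sulfite oxidase, had 17.1, 14.8 and 17.4 CPM with Dex and 9.03, 9.77 and 9.91 CPM with vehicle. In each of these 3 genes all Dex libraries were above all vehicle libraries, and the log2 fold changes of Dex over vehicle were 3.63 ± 0.19, 1.38 ± 0.21 and 0.78 ± 0.10 (± standard error, SE). A match is a description of these letters, and receptor binding was not measured.

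The 6 libraries held 25170129 to 30974558 counts each, with 11148 to 11159 of the 11160 genes detected, and the 42 libraries of the series ranged around a median of 27998700 (lowest 10140200, highest 33528400). Replicates of a group correlated over genes at 0.993 to 0.995 (Pearson's r of log2 CPM), and no 2 were the same within sampling noise. Mitochondrially encoded genes took 0.843 to 0.896% of the counts in the Dex libraries and 0.800 to 0.827% in the vehicle libraries. All 13 macrophage markers, Csf1r, Adgre1 and Spi1 among them, were measured, and their summed level was 25328 to 25970 CPM with Dex and 24740 to 28090 CPM with vehicle. None of the listed markers of T cells (6), NK cells (5) and erythroid cells (6) was analysed here. The neutrophil list (6 of 11 measured, led by Mmp8) summed to 369 to 513 CPM with Dex and 164 to 240.5 CPM with vehicle, with Ly6g, Elane and Camp not analysed here, and S100a8 and Ltf overlapped between the groups. The dendritic cell list (3 of 6, Flt3, Zbtb46 and Ccr7) summed to 4.62 to 6.26 CPM with Dex and 1.20 to 1.96 CPM with vehicle. The adipocyte list (Fabp4 only, of 5) summed to 172 to 206 CPM with Dex and 92.0 to 106 CPM with vehicle, and the mast cell list (Kit only, of 6) to 1.65 to 3.94 CPM with Dex and 6.82 to 9.77 CPM with vehicle. The osteoclast list (3 of 7) summed to 32.0 to 46.9 CPM with Dex and 24.9 to 34.4 CPM with vehicle, the megakaryocyte list (Pf4 and Ppbp, of 5) to 305 to 327 CPM with Dex and 245 to 323 CPM with vehicle, the stroma list (6 of 9) to 4.36 to 18.4 CPM with Dex and 4.26 to 13.8 CPM with vehicle, and the B cell list (Cd79b and Ebf1, of 6) to 3.62 to 4.27 CPM with Dex and 3.35 to 3.78 CPM with vehicle. The part of other cells in the results was not tested, and fewer cells of a type cannot be told apart from less RNA per cell.

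Dex changed 4131 of 11160 genes at 8 h (37.0%), at an adjusted p under 0.05 in edgeR's quasi-likelihood test with Benjamini-Hochberg adjustment. Of these, 2206 genes rose (19.8% of all) and 1925 fell (17.2% of all). The balance depended on the fit, since 2387 rose and 2552 fell when the replicate number entered as a block. Counts below are from the main fit, without a block, unless stated otherwise. Counts of list members at 8 h should be read against the 19.8% and 17.2% of all genes. Most changes were small: 1227 of the genes that rose and 1149 of those that fell did so by less than 1.5-fold. Rises of more than 2-fold numbered 503 (4.51%) and falls of more than 2-fold 334 (2.99%). Beyond 4-fold there were 149 rises and 62 falls, and beyond 16-fold 31 rises and 1 fall. The median log2 fold change was 0.52 among genes that rose, -0.49 among genes that fell and 0.01 over all genes tested. The 3 Dex libraries did not overlap the 3 vehicle libraries for 5795 genes (51.9%), among them 2163 of the genes that rose and 1871 of those that fell.

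**Figure D1:**
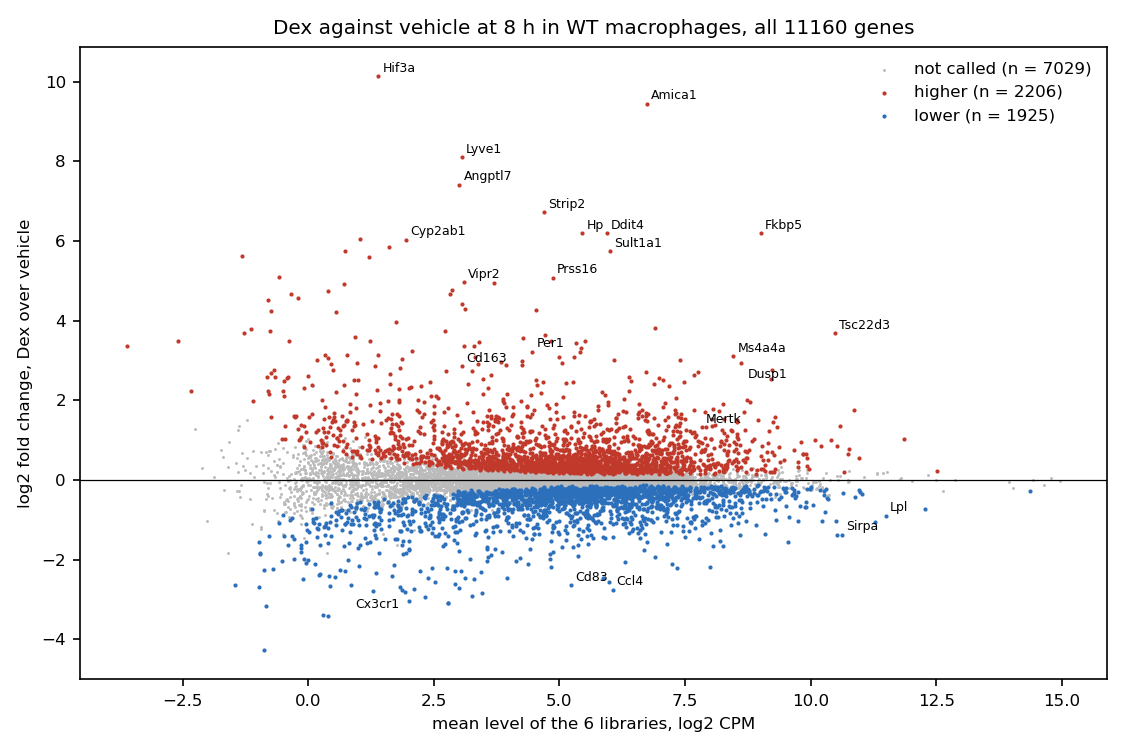
Each point is a gene, placed by its mean level in the 6 libraries (log2 CPM) and by its log2 fold change of Dex over vehicle at 8 h in WT macrophages. Red points are the 2206 genes called higher, blue points the 1925 called lower and grey points the genes not called; the largest rises reach further from 0 than the largest falls.

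Among genes called without overlap and with a mean of at least 5 CPM in a group, the steepest rises were in genes that were nearly silent with vehicle. Hif3a, a hypoxia-inducible factor subunit, had 5.17, 5.84 and 4.75 CPM in the Dex libraries and 0 counts in all 3 vehicle libraries. Set against a floor of 3 counts per vehicle library (0.101 CPM), it was at least 52.3-fold higher with Dex. Amica1, which encodes the junctional adhesion molecule-like protein of leukocytes, had 223, 174 and 243 CPM with Dex and 0.316, 0.435 and 0.142 CPM with vehicle. Every Dex library was far above every vehicle library, with a log2 fold change of 9.45 ± 0.46 (adjusted p = 1.08e-17, edgeR). Lyve1, a hyaluronan receptor of lymphatic endothelium and of some resident macrophages, had 25.2, 11.6 and 12.9 CPM with Dex and only 5 counts in the 3 vehicle libraries together, a ratio of 293 (95% counting interval 125 to 903). Angptl7, a secreted angiopoietin-like protein, had 17.7, 16.3 and 13.9 CPM with Dex and 8 counts in all vehicle libraries, a ratio of 179 (90.8 to 417). Counting intervals cover counting error only.

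Fkbp5 was the most abundant of the 12 genes with the highest fold changes in CPM. It encodes an immunophilin co-chaperone that lowers the hormone affinity of the glucocorticoid receptor, and it lies at 28399094-28517527 on chromosome 17, minus strand (GRCm38). Its level was 986, 1117 and 948 CPM in the Dex libraries and 13.2, 13.5 and 14.7 CPM in the vehicle libraries, a log2 fold change of 6.21 ± 0.35. Ddit4, an inhibitor of the growth kinase complex mTORC1, had 125, 126 and 114 CPM with Dex and 1.33, 2.11 and 1.53 CPM with vehicle. Hp, which encodes haptoglobin, the plasma carrier of free haemoglobin, had 95, 78.1 and 86.5 CPM with Dex and 0.82, 1.3 and 1.42 CPM with vehicle. Strip2, a striatin-interacting protein, had 54.8, 47.4 and 51.7 CPM with Dex and 0.631, 0.268 and 0.533 CPM with vehicle. In all of them the groups were far apart and the replicates of each group close together. Sult1a1, a phenol sulfotransferase, had 129.8, 128 and 122 CPM with Dex and 2.37, 2.61 and 2.1 CPM with vehicle. Prss16, a serine protease known from the thymus, had 53, 65.8 and 51.2 CPM with Dex and 1.7, 1.81 and 1.49 CPM with vehicle. Vipr2, a receptor for vasoactive intestinal peptide, had 16.3, 17.9 and 15.6 CPM with Dex and 0.6, 0.368 and 0.604 CPM with vehicle. Cyp2ab1, of the cytochrome P450 superfamily, had 11.2, 6.33 and 5.29 CPM with Dex and 0.189, 0.0334 and 0.107 CPM with vehicle, with the first Dex library the highest. The log2 fold changes of these last 8 genes were between 4.97 and 6.73, and no adjusted p among the 12 exceeded 3.04e-10 (edgeR). All 12 were also above their mean in untreated cells.

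**Figure D2:**
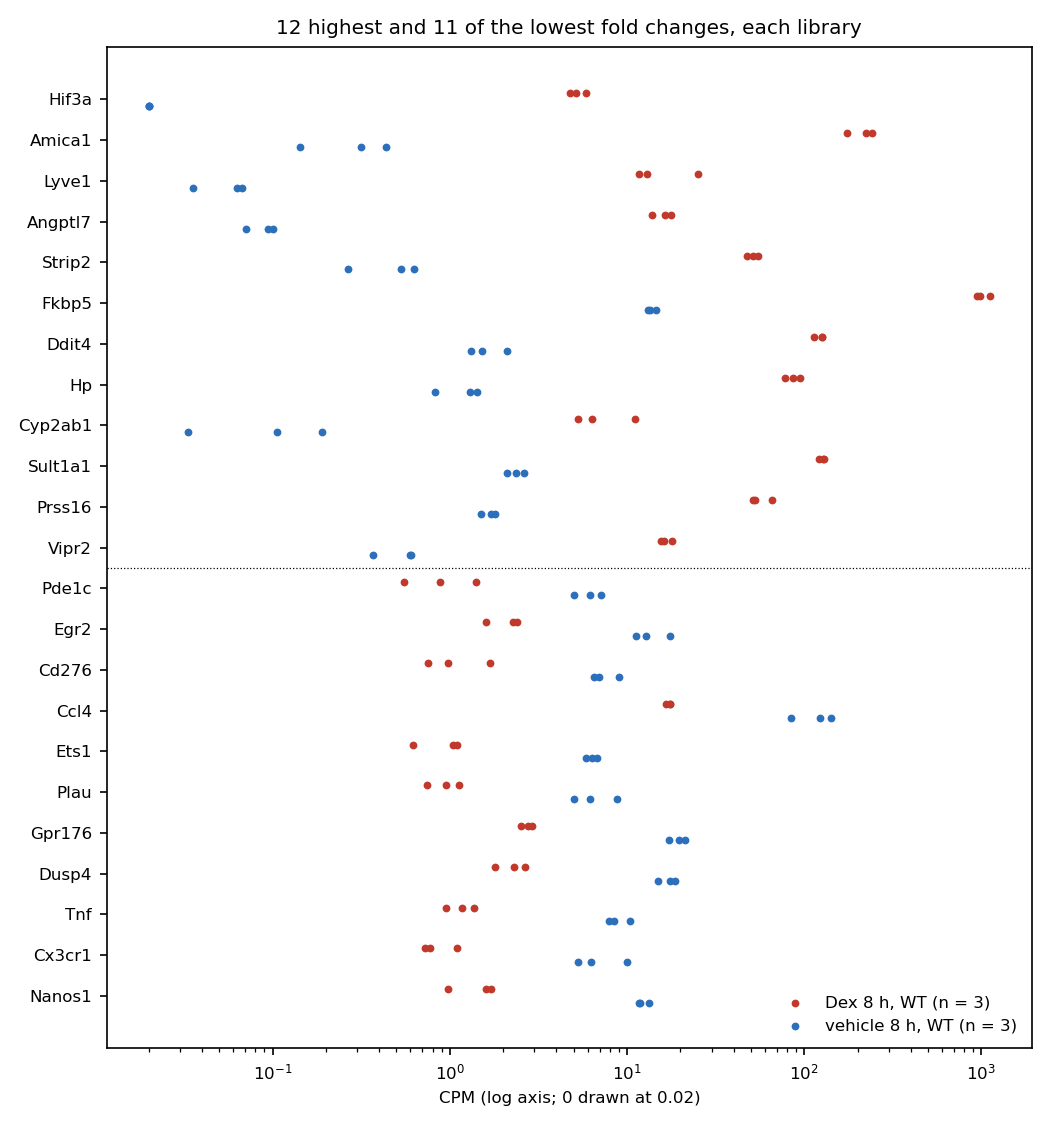
The 12 highest and 11 of the 12 lowest log2 fold changes among called genes with a mean of at least 5 CPM in a group and no overlap, with CPM of each library on a log axis, Dex libraries and vehicle libraries in separate colours (3 each). The Dex and vehicle points of every gene are separate, as this rule requires, and Hif3a had no counts in the vehicle libraries.

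By the same rule, the lowest fold changes included a cytokine, a chemokine, surface receptors and transcription factors. Tnf, the cytokine tumour necrosis factor (chromosome 17, 35199381-35202007, minus strand), had 1.17, 0.951 and 1.37 CPM with Dex and 10.4, 8.43 and 7.88 CPM with vehicle, a log2 fold change of -2.94 ± 0.22 (adjusted p = 3.76e-13, edgeR). Ccl4, a chemokine that attracts monocytes and lymphocytes, had 17.5, 17.4 and 16.7 CPM with Dex and 141, 122 and 84 CPM with vehicle. Both were lower in each Dex library than in any vehicle library. Cx3cr1, the fractalkine receptor, had 0.778, 0.721 and 1.1 CPM with Dex and 5.27, 9.97 and 6.25 CPM with vehicle. Gpr176, an orphan G protein-coupled receptor, had 2.76, 2.92 and 2.51 CPM with Dex and 21.3, 17.4 and 19.6 CPM with vehicle. Plau, the urokinase plasminogen activator, had 1.13, 0.951 and 0.745 CPM with Dex and 8.74, 6.22 and 5.01 CPM with vehicle. As the rule requires, all of these genes, Tnf and Ccl4 included, were without overlap between the groups. Egr2, an immediate early transcription factor, had 1.59, 2.39 and 2.27 CPM with Dex and 17.5, 12.8 and 11.2 CPM with vehicle. Dusp4, a nuclear MAP kinase phosphatase, had 2.64, 2.3 and 1.8 CPM with Dex and 18.8, 14.9 and 17.4 CPM with vehicle. Ets1, a transcription factor, had 0.622, 1.05 and 1.1 CPM with Dex and 6.75, 6.39 and 5.9 CPM with vehicle. Others were Nanos1 (an RNA-binding protein), Cd276 (a B7 family ligand) and Pde1c (a calmodulin-dependent phosphodiesterase), with log2 fold changes of -3.09, -2.73 and -2.70. These genes spanned -3.09 to -2.70 in log2 fold change, the highest adjusted p was 1.19e-05 (edgeR), and each was below its mean in untreated cells.

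The receptor itself fell modestly. Nr3c1 had 69.4, 76.9 and 81.3 CPM in the Dex libraries and 103, 94.7 and 98.3 CPM in the vehicle libraries, a log2 fold change of -0.38 ± 0.08 (adjusted p = 0.000492, edgeR). Of 16 measured genes for the receptor, its chaperones, coregulators and steroid handling, 6 rose and 4 fell (median log2 fold change 0.14). The members that fell besides Nr3c1 were chaperone genes, with log2 fold changes of -0.73 ± 0.11 for Hsp90aa1, -0.31 ± 0.07 for Hsp90ab1 and -0.21 ± 0.06 for the co-chaperone Stip1. The coactivator gene Ncoa1 rose, with 156, 156 and 145 CPM with Dex and 66.6, 66.2 and 72.7 CPM with vehicle. H6pd, which supplies NADPH to the enzyme that regenerates active glucocorticoid, also rose (1.03 ± 0.15), while that enzyme's own gene, Hsd11b1, was not analysed here.

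Known receptor targets were mostly higher. Of 32 measured genes on a list of direct targets, 22 rose and 6 fell, with a median log2 fold change of 1.36 against 0.01 over all genes. Tsc22d3, which encodes the anti-inflammatory leucine zipper protein GILZ (chromosome X, 140539528-140600659, minus strand), had 2680.5, 2637 and 2601 CPM with Dex and 212, 202 and 201 CPM with vehicle. Dusp1, a phosphatase that switches off MAP kinases, had 693, 728 and 656 CPM with Dex and 94.5, 95.7 and 82.9 CPM with vehicle. Zbtb16, the transcriptional repressor PLZF, had 22.5, 27.9 and 24.9 CPM with Dex and 0.663, 0.97 and 0.817 CPM with vehicle. Their groups were far apart, at log2 fold changes of 3.69 ± 0.21, 2.93 ± 0.22 and 4.94 ± 0.24. Klf9, a Krüppel-like repressor, had 77.4, 74.1 and 78.8 CPM with Dex and 8.39, 8.23 and 7.99 CPM with vehicle. Glul, the glutamine synthetase, had 195, 199 and 202 CPM with Dex and 38.2, 36.5 and 37.8 CPM with vehicle. Sgk1, the kinase named for serum and glucocorticoid and the holder of the longest palindrome above, had 206, 245 and 195 CPM with Dex and 74.8, 105 and 96 CPM with vehicle. These too did not overlap between groups. The 6 list members that fell were Angptl4, an inhibitor of lipoprotein lipase (-2.22 ± 0.26), Tgm2, a transglutaminase (-1.29 ± 0.15), the repressor Bcl6 (-1.06 ± 0.17), Rgs2, a regulator of G protein signalling (-0.96 ± 0.13), the insulin receptor substrate Irs2 (-0.52 ± 0.20) and Anxa1, which encodes annexin A1 (-0.42 ± 0.14). Anxa1 had 1863, 1398 and 1572 CPM with Dex and 2523, 1988 and 1975 CPM with vehicle. The calls of Anxa1 and Irs2 were near the threshold and were lost when certain libraries were left out, with log2 fold changes of -0.30 for Anxa1 without the vehicle library of replicate 1, -0.35 without the Dex library of replicate 2, and -0.52 to -0.45 for Irs2 without the Dex library of replicate 1 or 3 or the vehicle library of replicate 2 or 3. Pdk4, a kinase that inhibits pyruvate dehydrogenase, was not called, with 25 counts in the Dex libraries and 11 in the vehicle libraries, a ratio of 2.50 (1.18 to 5.62).

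Clock genes were changed in both directions. Among 20 measured circadian genes, 12 rose and 4 fell (median 0.53). Per1 and Per2 encode repressors of the clock's activator complex. Per1 had 33.1, 44.1 and 41.7 CPM with Dex and 3.57, 3.58 and 5.61 CPM with vehicle. Per2 had 17.9, 16.2 and 15.8 CPM with Dex and 0.757, 0.869 and 0.888 CPM with vehicle, a log2 fold change of 4.30 ± 0.31. The repressor Cry1 had 38.2, 40.7 and 47.7 CPM with Dex and 10.7, 11.4 and 12.1 CPM with vehicle, and Nfil3, a repressor of clock output, had 67, 67.7 and 61.7 CPM with Dex and 11.1, 13.2 and 11.2 CPM with vehicle. All 4 were separated between the groups. The members that fell were Npas2, a partner in the activator complex (-1.28 ± 0.19), the repressors Bhlhe40 (-1.14 ± 0.25) and Bhlhe41 (-1.05 ± 0.17), and the nuclear receptor Nr1d2 (-0.48 ± 0.13).

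Inflammatory ligands were lower where they changed, with few exceptions. Of 17 measured cytokine genes 7 fell and 1 rose (median -0.40), and of 18 chemokine ligand genes 7 fell and 2 rose (median -0.06), or 5 rose when the replicate number entered as a block (the blocked fit). Il1b, the inflammatory cytokine interleukin 1 beta, was low throughout, with 0.311, 0.23 and 0.0784 CPM with Dex and 1.67, 1.71 and 3.34 CPM with vehicle (17 against 198 counts, a ratio of 0.0943, 95% counting interval 0.0539 to 0.155). Ccl2, the main monocyte attractant, had 26.4, 16 and 12.1 CPM with Dex and 152, 88.3 and 57 CPM with vehicle, a wide spread without overlap (log2 fold change -2.45 ± 0.45). Ccl3, a relative of Ccl4, had 23.5, 23.9 and 23.1 CPM with Dex and 91.4, 65.6 and 57.6 CPM with vehicle. The growth factors Pdgfb (-1.89 ± 0.14) and Vegfa (-0.996 ± 0.21) and the transmembrane chemokine Cxcl16 (-1.10 ± 0.11) fell as well. The exceptions were Osm, the cytokine oncostatin M (0.88 ± 0.20), Ccl9, a chemokine of mouse myeloid cells (0.75 ± 0.24), and Cx3cl1, the fractalkine ligand (1.18 ± 0.36). Ccl9 had 1234, 915 and 897 CPM with Dex and 759.9, 564 and 487 CPM with vehicle, and its call was lost without the Dex library of replicate 1 (0.59) or the vehicle library of replicate 3 (0.62).

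Chemoattractant receptors moved mainly down, with 7 of 15 lower and 2 higher (median -0.14). Ccr3, the eotaxin receptor, had 15.9, 8 and 10.2 CPM with Dex and 66.8, 35 and 32.7 CPM with vehicle. Its groups were separate. Ptafr, the receptor for platelet-activating factor, fell (-0.65 ± 0.13), while the chemokine receptor Cxcr4 (0.54 ± 0.14) and the complement C5a receptor gene C5ar1 (0.36 ± 0.11) rose. The call of C5ar1 was lost without the vehicle library of replicate 3 (0.30).

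Both activators and brakes of NF-kB changed. Of 21 measured NF-kB subunits and feedback genes, 5 rose and 6 fell (median -0.14), or 10 fell in the blocked fit. Nfkbia, the inhibitor that holds NF-kB in the cytoplasm, had 156, 153 and 163 CPM with Dex and 59, 49.8 and 47.9 CPM with vehicle. Birc3, an inhibitor of apoptosis and ubiquitin ligase of the pathway, had 124, 114 and 116 CPM with Dex and 34.6, 33.5 and 37.7 CPM with vehicle. The atypical inhibitor Bcl3 rose less (0.58 ± 0.12). Tnip3, which binds the feedback enzyme A20, had 12.6, 8.2 and 10.2 CPM with Dex and 63.1, 38.5 and 39.2 CPM with vehicle, and Tank, an adaptor of the pathway, fell to 36.2, 32.9 and 31.6 CPM with Dex, against 65.1, 64.4 and 54.4 CPM with vehicle. Of the 23 immediate early and MAP kinase feedback genes, 11 fell and 4 rose (median -0.55). Atf3, a stress-induced repressor, had 154, 153 and 146 CPM with Dex and 438, 442 and 419 CPM with vehicle. Within the AP-1 family the direction differed by member, since Fosl2 (1.33 ± 0.15) and Fos (0.83 ± 0.17) rose, as did the immediate early gene Ier2 (0.54 ± 0.14).

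Receptors that sense microbes and immune complexes rose more often than they fell. Of 21 Toll-like receptor pathway genes 10 rose and 3 fell (median 0.25), and of 16 Fc and inhibitory receptor genes 9 rose and 3 fell (median 0.37). In the blocked fit, the falls were 5 and 6. Tlr5, the flagellin receptor, had 20.3, 13.5 and 20.1 CPM with Dex and 1.7, 1.64 and 1.85 CPM with vehicle. Tlr7, a receptor for single-stranded RNA, had 451, 465 and 537 CPM with Dex and 129.7, 123 and 132 CPM with vehicle, and its relative Tlr8 also rose (1.25 ± 0.14). Tlr1, a partner of Tlr2 for bacterial lipopeptides, fell (-1.20 ± 0.19), as did the signalling kinase gene Irak2 (-0.64 ± 0.16) and the adaptor Ticam1 (-0.40 ± 0.11). Siglece, an inhibitory sialic acid receptor, had 6.77, 6.13 and 7.18 CPM with Dex and 1.64, 1.04 and 1.39 CPM with vehicle. Fcgr3, a low-affinity IgG receptor, had 1151, 1009.5 and 1201 CPM with Dex and 751, 701 and 704 CPM with vehicle, and Cd300lf, a lipid-binding inhibitory receptor, rose too (1.38 ± 0.14). The collagen receptor Lair1 (-0.86 ± 0.09), the phosphatase gene Ptpn6 (-0.58 ± 0.10) and Lilrb4 (-0.49 ± 0.09), all of the second list, fell.

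Genes of costimulation and checkpoint control split by member. Of 14 measured genes 3 rose and 7 fell (median -0.27). Icosl, the ligand of ICOS, had 60.0, 68.3 and 47 CPM with Dex and 7.61, 8.13 and 7.28 CPM with vehicle. Cd40, the receptor of the T cell CD40 ligand, had 11.3, 11.2 and 7.53 CPM with Dex and 4.2, 2.54 and 2.41 CPM with vehicle, and Havcr2, the checkpoint receptor TIM-3, had 265, 217 and 285 CPM with Dex and 77.5, 89 and 96.7 CPM with vehicle. All 3 were separated upwards. Cd83, an activation marker, had 10.5, 11 and 9.61 CPM with Dex and 67, 65.7 and 61.7 CPM with vehicle. Sirpa, the receptor for the "do not eat me" ligand CD47, had 872, 872 and 895 CPM with Dex and 2300.1, 2137 and 2386 CPM with vehicle. Antigen presentation changed little at this time: 1 of 12 class II genes rose and 1 fell (median -0.07), and 2 of 20 class I genes rose and 1 fell (median -0.0046). In the blocked fit, 0 rose and 3 fell in class II and 5 fell in class I, and in DESeq2 0 class II genes rose. The class II gene that fell was Ciita, the master regulator of the class (-2.43 ± 0.44).

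Inflammasome genes and those of the interleukin 1 system rose and fell in equal numbers, with 7 of 20 in each direction (median -0.03). Il1r2, the decoy receptor of interleukin 1, had 4.74, 3.38 and 5.8 CPM with Dex and 2.08, 1.44 and 1.67 CPM with vehicle. Nlrp3, the inflammasome sensor, had 11.4, 11.2 and 12.7 CPM with Dex and 19.9, 19.5 and 19 CPM with vehicle. The channel gene Panx1 (0.76 ± 0.12) and the thioredoxin-binding protein gene Txnip (0.70 ± 0.12) rose. Among 18 genes of prostaglandin and leukotriene synthesis and response, 8 fell and 3 rose (median -0.12). Pla2g4a, the cytosolic phospholipase that releases arachidonic acid, had 14, 10.0 and 14.6 CPM with Dex and 31.4, 23 and 29.4 CPM with vehicle. Hpgds, a prostaglandin D synthase, had 131, 145 and 137 CPM with Dex and 271, 259 and 260.2 CPM with vehicle. The 3 that rose were Ptger2, a receptor for prostaglandin E (1.06 ± 0.14), Pla2g7, which degrades platelet-activating factor (0.91 ± 0.21), and the leukotriene pathway gene Alox5ap (0.26 ± 0.09). The call of Alox5ap was lost without the Dex library of replicate 3 (0.21) or the vehicle library of replicate 1 (0.24).

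Cytokine receptors and their SOCS feedback genes moved both ways, with 10 of 31 higher and 10 lower (median -0.13). Socs2, a feedback inhibitor of growth hormone and cytokine signalling, had 17.7, 17.9 and 12.4 CPM with Dex and 0.726, 0.836 and 0.675 CPM with vehicle. Il4ra, a subunit of the interleukin 4 receptor, had 237, 226 and 242 CPM with Dex and 99.4, 93.3 and 111 CPM with vehicle, and Ifngr1, of the interferon gamma receptor, had 489, 441 and 524 CPM with Dex and 215, 199.7 and 211 CPM with vehicle. Il21r, the interleukin 21 receptor gene, had 5.99, 8.4 and 6.24 CPM with Dex and 29.3, 30.2 and 25.2 CPM with vehicle. Of 41 interferon-stimulated genes 8 fell and 0 rose in edgeR (median -0.02), with 3 rises at an unadjusted p under 0.05, 0 rises in DESeq2 and 3 in the blocked fit. The share of this list that fell, 19.5%, was near the 17.2% of all genes. Ifit1, an antiviral RNA-binding protein, had 8.94, 8.23 and 13.1 CPM with Dex and 16.9, 20.5 and 26.8 CPM with vehicle, and both groups were far below the untreated mean of 183 CPM. Rsad2, the antiviral enzyme viperin, had 33.5, 27.8 and 35.5 CPM with Dex and 59, 60.0 and 67.3 CPM with vehicle, against 355 CPM in untreated cells. Both calls were lost when certain libraries were left out: Ifit1 stood at -1.01, -0.97 and -0.89 without the Dex library of replicate 1, the Dex library of replicate 2 and the vehicle library of replicate 3, and Rsad2 at -0.87 without the Dex library of replicate 2.

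Receptors for the uptake of dying cells and haemoglobin were among the genes that rose. Of 21 measured scavenger and efferocytosis genes 8 rose and 3 fell (median 0.18), or 7 fell in the blocked fit. Cd163, the receptor for haptoglobin-haemoglobin complexes, had 15.7, 12.8 and 15.5 CPM with Dex and 2.93, 1.44 and 1.63 CPM with vehicle. Mertk, a receptor kinase for apoptotic cells, had 311, 335 and 329 CPM with Dex and 126, 124 and 139.8 CPM with vehicle. Mrc1, the mannose receptor, had 796, 619 and 784 CPM with Dex and 302, 239 and 238 CPM with vehicle. In all 3 the groups were apart. Axl, a sister kinase of Mertk, had 50.1, 64.1 and 64 CPM with Dex and 92.4, 102 and 113 CPM with vehicle. Gas6, the ligand that bridges both kinases to dying cells, had 277, 250.2 and 274 CPM with Dex and 519, 439 and 541 CPM with vehicle, and the integrin subunit gene Itgav fell by more (-1.47 ± 0.18). Thus, within the list, Mertk rose while Axl and Gas6 fell. Complement genes moved mostly up, with 7 of 16 higher and 1 lower (median 0.18): C1qb, a subunit of the first complement component, had 1928, 1901 and 1601 CPM with Dex and 953, 1016 and 726 CPM with vehicle, C1qa (1.35 ± 0.21) and C1qc (0.50 ± 0.11) rose with it, and the C3a receptor gene C3ar1 fell (-0.29 ± 0.08).

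Of 9 measured Ms4a genes, which encode membrane proteins with 4 spans, 7 rose (median 1.97). Ms4a4a (chromosome 19, 11375523-11392790, plus strand), the gene targeted in the KO cells, had 596, 649 and 647 CPM with Dex and 67, 71.7 and 80.1 CPM with vehicle in WT macrophages. Ms4a6b had 1009, 969 and 1052 CPM with Dex and 176, 173 and 175 CPM with vehicle. Ms4a6c (2.003 ± 0.15) and Ms4a6d (1.45 ± 0.13) rose as well. The family has similar members whose reads may be shared between genes, so the division among them is uncertain.

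**Figure D3:**
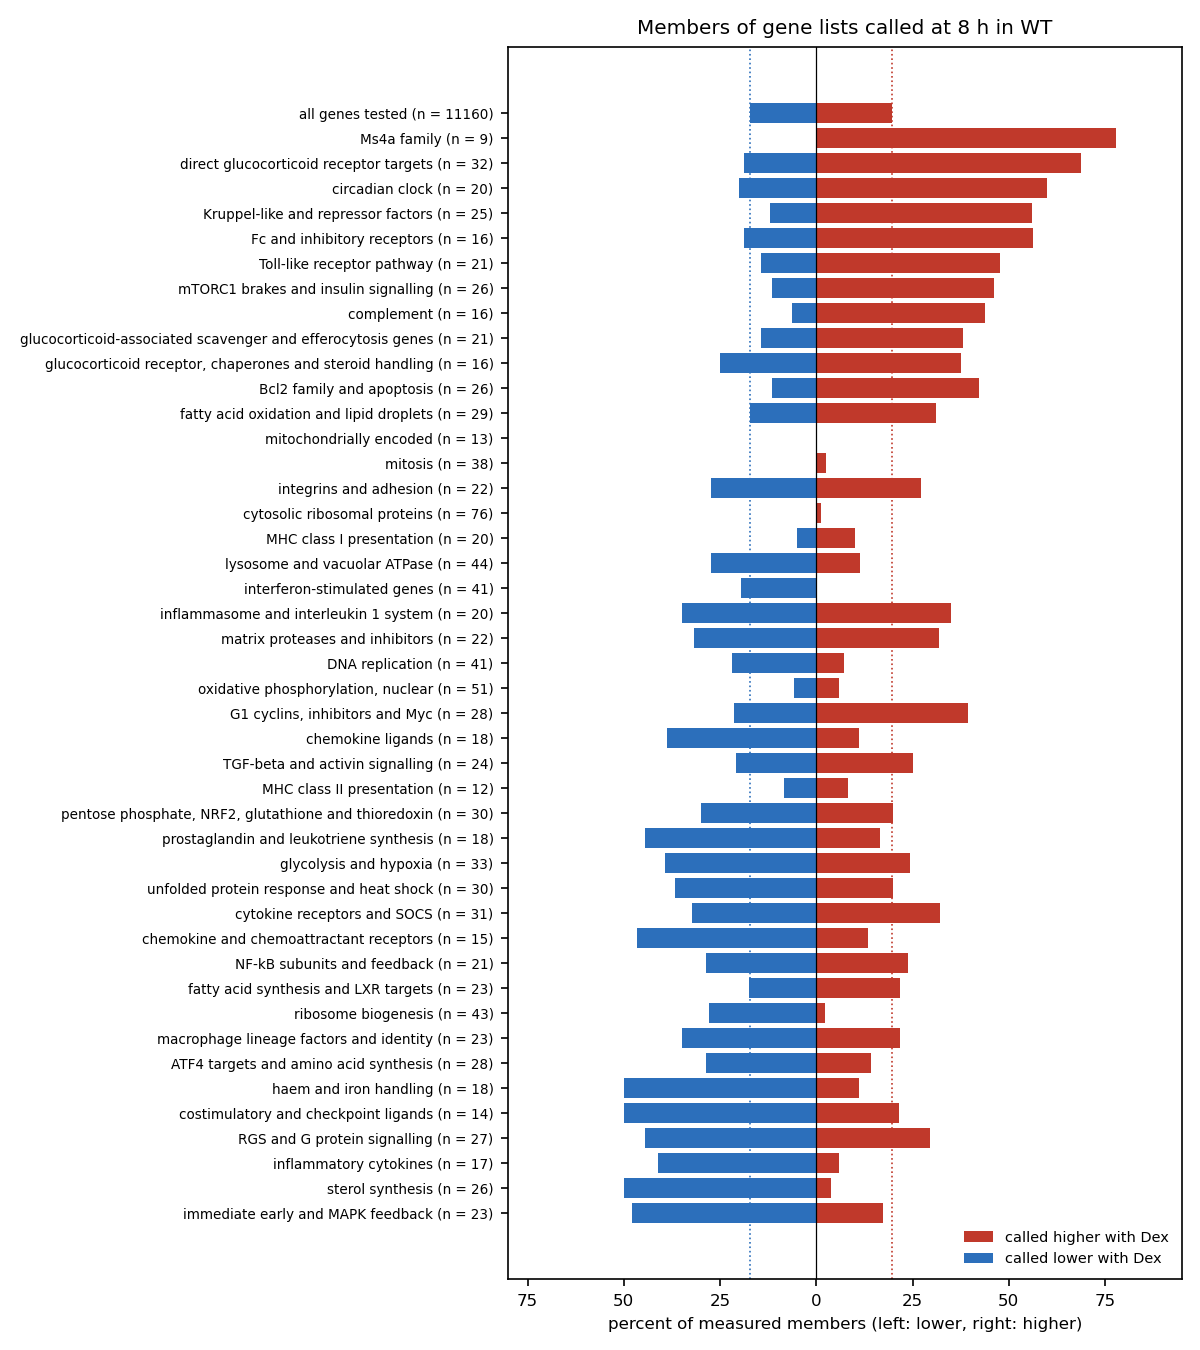
Percent of measured members called lower (left) and higher (right) in each gene list for Dex against vehicle at 8 h in WT macrophages, with lists ordered by median log2 fold change and all 11160 genes at the top for reference. The Ms4a family and the direct receptor targets have the highest medians (1.97 and 1.36), and the immediate early and sterol synthesis lists the lowest (-0.55 and -0.54).

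Iron handling genes fell more often than they rose, with 9 of 18 lower and 2 higher (median -0.20). The 2 that rose were Lcn2, which encodes the siderophore-binding protein lipocalin 2, and Hmox1, the haem-degrading enzyme. Lcn2 had 19.9, 14.3 and 20.6 CPM with Dex and 1.74, 1.04 and 4.62 CPM with vehicle, and Hmox1 had 1115, 842 and 1427 CPM with Dex and 775, 558 and 829 CPM with vehicle. The call of Hmox1 was lost without the Dex library of replicate 3 (0.44) or the vehicle library of replicate 2 (0.48). The iron importers Tfrc, the transferrin receptor (-0.95 ± 0.15), and Slc11a2, a divalent metal transporter (-1.05 ± 0.11), fell, as did the ferrireductase gene Steap3 (-0.90 ± 0.12).

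Sterol synthesis genes fell, with 13 of 26 lower, 1 higher and a median of -0.54. Idi1, an isomerase of the isoprenoid stage, had 24.6, 24.9 and 27.5 CPM with Dex and 66.4, 70.7 and 66.9 CPM with vehicle. Cyp51, the lanosterol demethylase, had 38.7, 32.8 and 35.2 CPM with Dex and 79.1, 80.0 and 87 CPM with vehicle. Msmo1, a sterol methyl oxidase, had 100.5, 86.3 and 99.7 CPM with Dex and 216, 209 and 206 CPM with vehicle, and Hsd17b7 fell furthest of the named members (-1.73 ± 0.21). The member that rose was Pmvk, the phosphomevalonate kinase (0.93 ± 0.12). Chosen after its values were seen, Sqle, the squalene epoxidase, had 31.8, 28.1 and 35.5 CPM with Dex and 86.5, 80.2 and 89.2 CPM with vehicle. The transcription factor gene that drives the pathway, Srebf2, chosen in the same way, also fell (-0.97 ± 0.12).

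In fatty acid synthesis and LXR targets 5 of 23 rose and 4 fell (median -0.14), and in fatty acid oxidation and lipid droplets 9 of 29 rose and 5 fell (median 0.09), and the shares of the first list are near those of all genes (19.8% higher and 17.2% lower). In the blocked fit, the falls were 9 and 8. Pnpla2, the adipose triglyceride lipase, had 306, 316 and 328 CPM with Dex and 88.8, 87.4 and 104 CPM with vehicle. Elovl5, which elongates polyunsaturated fatty acids, had 233, 216 and 229 CPM with Dex and 101, 91.6 and 98.4 CPM with vehicle, and Dgat2, a triglyceride synthase, rose at a low level (2.42 ± 0.24). Lipa, the lysosomal acid lipase, had 793, 739 and 915 CPM with Dex and 2092, 2008 and 2238 CPM with vehicle. Lpl, the lipoprotein lipase, had 2334, 1725 and 1978 CPM with Dex and 4116, 3501 and 3601 CPM with vehicle, and the lipid-sensing nuclear receptor gene Pparg had 23.9, 23.8 and 20.6 CPM with Dex and 68.4, 64.7 and 57.9 CPM with vehicle. The 2 lipases, Pparg and the fatty acid carrier Fabp5 (-1.02 ± 0.13) were thus lower, while the adipocyte-list gene Fabp4 was higher (0.92 ± 0.18).

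In glycolysis and hypoxia 8 of 33 genes rose and 13 fell (median -0.12). Pfkfb3, which makes the activator of phosphofructokinase, had 186, 181 and 180.2 CPM with Dex and 24, 29.9 and 29.8 CPM with vehicle. The glucose transporter gene Slc2a3 (1.16 ± 0.13) and the phosphofructokinase gene Pfkl (1.03 ± 0.09) rose, and the hexokinase gene Hk3 fell (-0.63 ± 0.07). The mTORC1 and insulin list holds brakes of growth signalling and also genes of insulin signalling. Of its 26 genes, 12 rose, 3 fell and 11 were not called (median 0.23). Pik3ip1, an inhibitor of phosphoinositide 3-kinase, had 207, 235 and 227 CPM with Dex and 16.1, 16.2 and 15.7 CPM with vehicle (adjusted p = 2.49e-21, edgeR). Deptor, an mTOR-binding inhibitor, had 54.2, 57.1 and 69.9 CPM with Dex and 22, 20.1 and 23.7 CPM with vehicle. The growth factor Igf1, one of the members that fell, had 298, 292 and 317 CPM with Dex and 761, 785 and 794 CPM with vehicle. In the redox list 6 of 30 rose and 9 fell (median -0.10), with Txnrd1, the thioredoxin reductase (-1.19 ± 0.16), and Prdx1, a peroxiredoxin (-1.05 ± 0.12), among those lower and Prdx6 (0.94 ± 0.08), Gpx3, a glutathione peroxidase (1.18 ± 0.17), and Gsta3, a glutathione transferase (1.72 ± 0.27), among those higher. The NRF2 gene itself, Nfe2l2, had 204, 202 and 219.6 CPM with Dex and 297, 285 and 303 CPM with vehicle.

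Mitosis genes changed little at this time, and DNA replication genes were called less often than all genes. Of 38 mitosis genes 1 rose (median 0.07), or 6 in the blocked fit, the single one being the condensin gene Smc4 (0.62 ± 0.09), and of 41 DNA replication genes 3 rose and 9 fell (median -0.04). The called share of the DNA replication list was 29.3%, against 37.0% of all genes. Pcna, the sliding clamp of replication, had 138, 119 and 124 CPM with Dex and 285, 274 and 235 CPM with vehicle, and the helicase subunit genes Mcm2 (-0.88 ± 0.13) and Mcm3 (-0.55 ± 0.10) and the licensing factor Cdt1 (-0.69 ± 0.12) fell. In the G1 list 11 of 28 rose and 6 fell (median -0.06). The antiproliferative genes Btg1 and Btg2 rose, Btg1 having 428, 420.1 and 434 CPM with Dex and 189, 198 and 181 CPM with vehicle, and so did the cyclin gene Ccnd3 (1.03 ± 0.10). Myc, the growth-promoting transcription factor, had 13.2, 7.12 and 7.73 CPM with Dex and 31.7, 17.3 and 18.8 CPM with vehicle, and the cyclin gene Ccnd1 had 18.6, 13.6 and 19.7 CPM with Dex and 42, 34 and 24.8 CPM with vehicle. The call of Ccnd1 was lost without the Dex library of replicate 2 (-0.83) or the vehicle library of replicate 1 (-0.77). Ribosome biogenesis genes fell in 12 of 43 cases and rose in 1 (median -0.17), with Nop58, a core protein of small nucleolar particles, at -0.75 ± 0.14, and fell in 19 and rose in 2 in the blocked fit. Of 76 cytosolic ribosomal protein genes 1 rose (median 0.02), or 2 in the blocked fit. In oxidative phosphorylation 3 of 51 nuclear genes rose and 3 fell (median -0.05), or 5 fell in the blocked fit. Of 13 mitochondrially encoded genes 0 were called by edgeR (median 0.08) and 0 by DESeq2, with 0 at an unadjusted p under 0.05.

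Stress and survival genes were mixed. In the unfolded protein response and heat shock list 6 of 30 rose and 11 fell (median -0.12): Herpud1, of the degradation machinery of the endoplasmic reticulum, had 39.5, 42.9 and 42.2 CPM with Dex and 15, 14.2 and 13.9 CPM with vehicle, the small heat shock protein gene Hspb1 rose at a low level (2.86 ± 0.36), and the mitochondrial chaperone gene Hspd1 fell (-0.53 ± 0.07). In the ATF4 list 4 of 28 rose and 8 fell (median -0.20), or 13 fell in the blocked fit, Mthfd2, a mitochondrial folate enzyme, having 10.1, 10.9 and 12.4 CPM with Dex and 29.2, 25.8 and 27.7 CPM with vehicle. In the lysosome list 5 of 44 rose and 12 fell (median -0.02), with the proton pump subunit genes Atp6v0a1 (-1.37 ± 0.15) and Atp6v1c1 (-0.54 ± 0.05) lower and Npc1, a cholesterol exporter (0.78 ± 0.08), higher. The called shares of the ATF4 and lysosome lists, 42.9% and 38.6%, were near the 37.0% of all genes. Of 26 apoptosis genes 11 rose and 3 fell (median 0.13), or 5 fell in the blocked fit. Bcl2, the anti-apoptotic founder of its family, had 2.37, 2.36 and 2.43 CPM with Dex and 9.37, 11.2 and 12.9 CPM with vehicle.

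Transcription factors of the Krüppel-like and repressor list rose in 14 of 25 cases and fell in 3 (median 0.41), or in 6 in the blocked fit. Klf13 had 104, 111 and 114 CPM with Dex and 39.3, 43.4 and 47.9 CPM with vehicle. Klf2 and Klf4, factors that restrain inflammatory genes and were chosen after their values were seen, rose as well (1.71 ± 0.18 and 2.31 ± 0.24). Prdm1, the repressor BLIMP-1, had 6.88, 6.76 and 9.84 CPM with Dex and 31.8, 30.9 and 38.5 CPM with vehicle. Among 23 macrophage lineage factors and identity genes 5 rose and 8 fell (median -0.19), with Cebpb, a factor of myeloid gene activation, at 1.34 ± 0.19, Maf at 0.83 ± 0.17 and Mitf, a factor of lysosomal and osteoclast genes, at -0.92 ± 0.16. Of the macrophage markers, Cd68 had 1784, 1853 and 1833 CPM with Dex and 2145, 2281 and 2041 CPM with vehicle, and Itgam had 829.6, 671 and 749 CPM with Dex and 518, 459.5 and 484 CPM with vehicle.

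In the matrix protease list 7 of 22 rose and 7 fell (median -0.03), with Mmp19, a matrix metalloproteinase, at 185, 122 and 120.2 CPM with Dex and 24.5, 20.5 and 25.8 CPM with vehicle. Mmp8, a collagenase that also leads the neutrophil markers, had 355, 346 and 434 CPM with Dex and 131, 149 and 166 CPM with vehicle, while the neutrophil genes S100a8 (0.32 ± 0.50) and Mpo (-0.19 ± 0.67) were not called. Thbs1, the matrix protein thrombospondin 1, had 877, 935 and 944 CPM with Dex and 265, 376 and 455 CPM with vehicle. In the integrin and adhesion list 6 of 22 rose and 6 fell (median 0.04), with the adhesion molecule gene Vcam1 at 1.82 ± 0.22 and the hyaluronan receptor gene Cd44 at -1.07 ± 0.07. In the TGF-beta list 6 of 24 rose and 5 fell (median -0.07), shares near the 19.8% and 17.2% of all genes, with Smurf2, a ubiquitin ligase for its receptors, at 1.61 ± 0.12 and the pseudoreceptor gene Bambi at -0.997 ± 0.12. In the RGS and G protein list 8 of 27 rose and 12 fell (median -0.29): S1pr1, a sphingosine 1-phosphate receptor, had 43.6, 43.2 and 55.5 CPM with Dex and 142, 166 and 168 CPM with vehicle. Flt3, a receptor kinase on the dendritic cell list, had 5.37, 3.87 and 4.39 CPM with Dex and 8 counts in all vehicle libraries, a ratio of 50.5 (25.4 to 118), while Ccr7 on the same list fell (17 against 90 counts, a ratio of 0.207, 0.116 to 0.351). The call of Ccr7 was lost without the Dex library of replicate 1 (-1.69) or 2 (-1.89) or the vehicle library of replicate 3 (-1.78).

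The effect at 8 h was broader than at 2 h by the number of calls, since the same test called 1007 genes at 2 h (9.02%), 4131 at 8 h (37.0%) and 4655 at 24 h (41.7%). Each time had its own Dex and vehicle libraries. Over all 11160 genes, 653 rose and 354 fell at 2 h, and 2315 rose and 2340 fell at 24 h. List counts at 2 h and 24 h below should be read against these. Genes called in the same direction at 2 h and 8 h numbered 758, which is 18.3% of the calls at 8 h and 75.3% of those at 2 h. The difference between the effects was tested for each gene in the same fit: the effect at 8 h minus that at 2 h was called for 1980 genes (17.7%), positive in 1047 (9.38%) and negative in 933 (8.36%). Which sign was more common depended on the fit, with 1350 positive and 1499 negative in the blocked fit and 1003 positive and 1119 negative with the compared libraries alone. Among genes with at least 5 CPM in a group, those with the largest positive differences included Angptl7 (log2 fold change 7.41 at 8 h and 1.01 at 2 h, difference 6.41 ± 0.97), Cyp2ab1 (6.03 and 1.04, difference 4.99 ± 0.99) and Hp (6.20 and 1.57, difference 4.63 ± 0.65). Hif3a was also in this group (difference 6.96 ± 1.56), with a fitted value that depends on the prior count because its vehicle libraries at 8 h hold no counts. Among the largest negative differences were those of Gpr176 (-2.82 at 8 h and -0.08 at 2 h, difference -2.74 ± 0.33), Pde1c (-2.70 and 0.03, difference -2.72 ± 0.39) and Dach1, a transcription factor (-2.40 and 0.23, difference -2.63 ± 0.30). At 2 h none of these 3 was called in the edgeR test, in which 354 genes fell.

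Many known receptor targets were already called at 2 h. Tsc22d3 had log2 fold changes of 2.78 at 2 h, 3.69 at 8 h and 3.07 at 24 h. Dusp1 had 2.19, 2.93 and 1.57, and Ddit4 5.31, 6.20 and 5.46, at the same times. For Ddit4 and Dusp1 the difference between 8 h and 2 h was not called (0.89 ± 0.52 and 0.73 ± 0.30). The list of direct targets held 20 rises and 3 falls at 2 h, 22 and 6 at 8 h, and 22 and 7 at 24 h. The difference between 8 h and 2 h was nevertheless called for 15 of these 32 targets, positive in 12 and negative in 3, against 17.7% of all genes. Among them were Fkbp5 (1.67 ± 0.42), Glul (1.03 ± 0.16) and Tsc22d3 (0.91 ± 0.27). Inflammatory cytokines had 6 falls at 2 h, 7 at 8 h and 9 at 24 h. Tnf fell at each time (-2.06 at 2 h, -2.94 at 8 h and -2.74 at 24 h), and Ccl2 likewise (-1.77, -2.45 and -2.35).

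Other groups changed between 2 h and 8 h. Of the 26 sterol synthesis genes 0 were called at 2 h by the edgeR test (1 rise and 3 falls at an unadjusted p under 0.05), whereas 1 rose and 13 fell at 8 h and 1 rose and 16 fell at 24 h, and the difference between 8 h and 2 h was negative for 10 of them and positive for 1. The Ms4a family had 2 rises at 2 h, 7 at 8 h and 7 at 24 h with 1 fall, and the difference was positive for 7 of 9. Ms4a4a had a log2 fold change of 0.45 at 2 h, which was not called, 3.11 at 8 h and 3.24 at 24 h. Mertk had 0.73, 1.33 and 1.40 at these times. Ribosome biogenesis genes had 2 rises and 1 fall at 2 h, 1 and 12 at 8 h, and 6 and 8 at 24 h. Their shares at 24 h were no higher than those of all genes (2315 rises and 2340 falls of 11160). The difference between 8 h and 2 h was negative for 11 of 43.

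**Figure D4:**
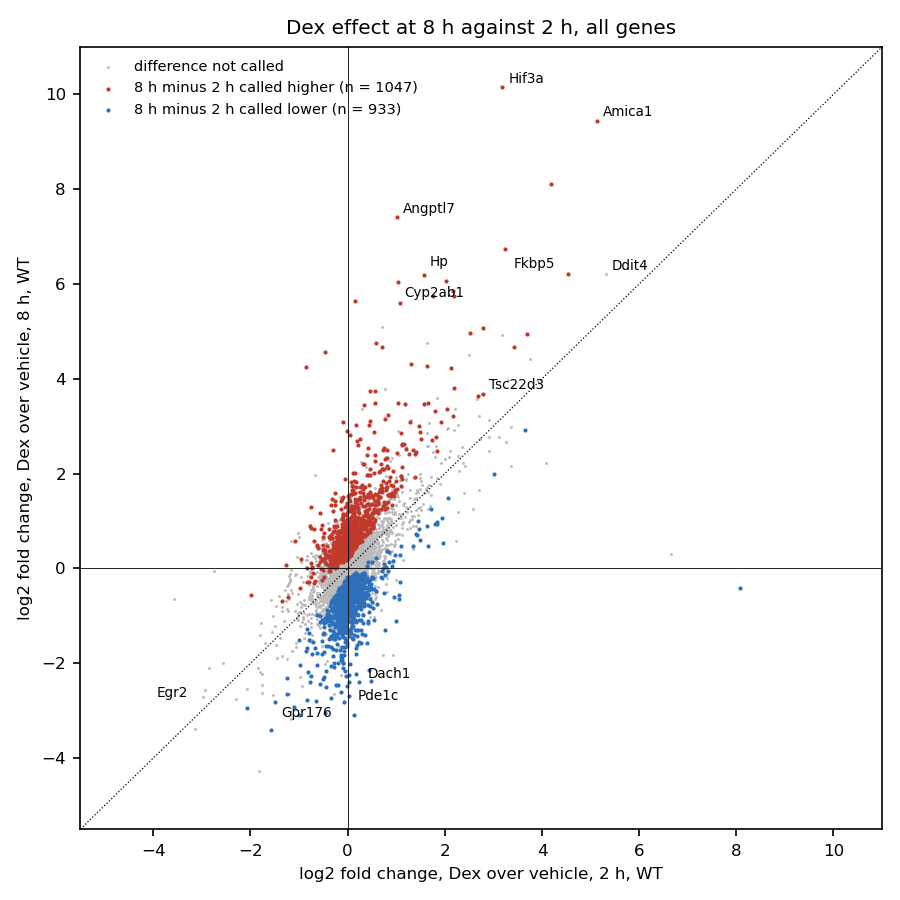
Log2 fold change of Dex over vehicle at 8 h against that at 2 h in WT macrophages, 1 point per gene, with the dotted line marking equal effects. Red points are the 1047 genes whose difference (8 h minus 2 h) was called higher and blue points the 933 called lower; Gpr176, Pde1c and Dach1 lie below -2 at 8 h and near 0 at 2 h.

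The period from 8 h to 24 h brought other changes. The effect at 24 h minus that at 8 h was called for 1342 genes (12.0%), positive in 394 (3.53%) and negative in 948 (8.49%), or for 2046 genes in the blocked fit (804 positive and 1242 negative). This difference uses the same 8 h libraries as the one before. Cell cycle genes lay on the negative side: the difference was negative for 37 of 38 mitosis genes and for 36 of 41 DNA replication genes. Esco2, a cohesin acetyltransferase of S phase, had 16.9, 17.4 and 17.5 CPM at 8 h with Dex and 12.6, 12.4 and 11.1 CPM with vehicle, and log2 fold changes of -2.63 at 24 h and 0.52 at 8 h. The repressor E2f7 had -2.91 at 24 h and 0.24 at 8 h (not called), and Rrm2, a subunit of ribonucleotide reductase, -2.63 at 24 h and 0.37 at 8 h (not called). On the positive side were Saa3, an acute phase protein (6.09 at 24 h and 3.10 at 8 h), Ly6c2, a marker of inflammatory monocytes (3.43 and 0.61), Chil3, a chitinase-like protein (3.90 and 1.29), and Mmp8 (3.09 and 1.35). At 8 h Saa3 had 73, 50.9 and 47.5 CPM with Dex and 6.09, 7.56 and 6.36 CPM with vehicle, whereas Chil3 overlapped between the groups, with 31.6, 24.6 and 68.2 CPM with Dex and 12.7, 12.6 and 25.4 CPM with vehicle. At 8 h the call of Chil3 was lost without the Dex library of replicate 3 (0.73) or the vehicle library of replicate 1 (1.12) or 2 (1.11), and that of Esco2 without the Dex library of replicate 2 (0.49) or the vehicle library of replicate 3 (0.46).

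Some genes had an effect at 8 h that exceeded those at both other times. Cry1 had log2 fold changes of -0.05 at 2 h, 1.89 at 8 h and 0.07 at 24 h, and both differences were called (1.94 ± 0.18 for 8 h minus 2 h and -1.82 ± 0.19 for 24 h minus 8 h). Per2 followed the same course (1.30, 4.30 and 1.43, differences 3.003 ± 0.41 and -2.87 ± 0.45). Mrc1 had 0.37, 1.496 and 0.45, with both differences called as well (1.13 ± 0.20 and -1.05 ± 0.20). Angptl7 had 1.01, 7.41 and 3.37, and its difference between 24 h and 8 h was -4.04 ± 0.84. Csf3r, the receptor for G-CSF, followed the opposite course, with 0.01 at 2 h, -1.11 at 8 h and 0.34 at 24 h (differences -1.12 ± 0.20 and 1.44 ± 0.20).

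**Figure D5:**
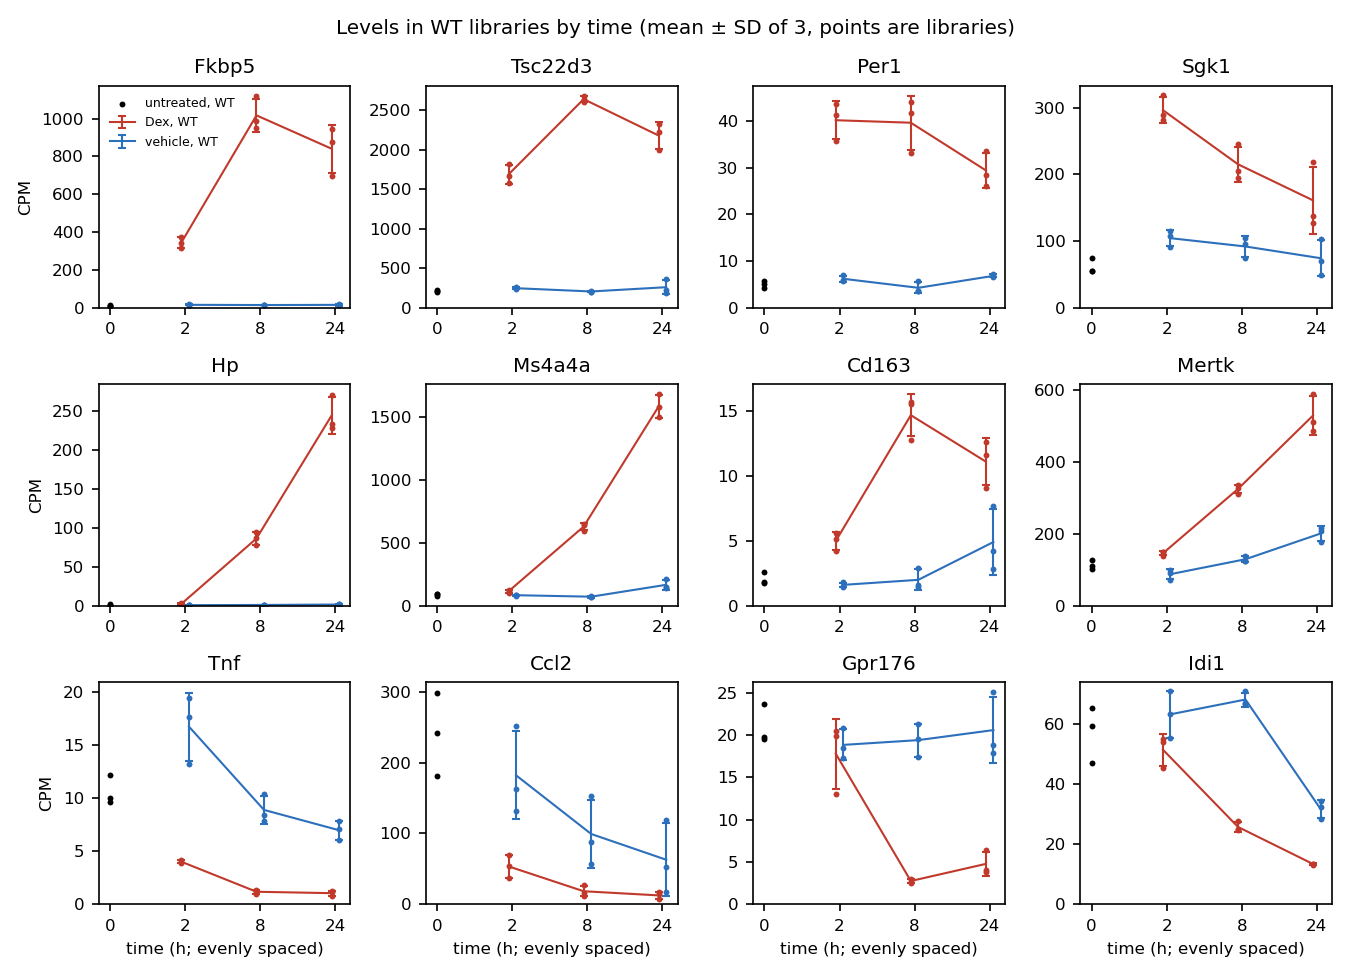
Level of 12 genes (CPM) in WT macrophages, untreated at 0 h and with vehicle or Dex at 2, 8 and 24 h, with times evenly spaced and not to scale, points for libraries and lines through means of 3. Fkbp5, Tsc22d3 and Per1 are already apart at 2 h, Hp, Ms4a4a and Mertk are further apart at 8 h, and Tnf, Ccl2, Gpr176 and Idi1 are lower with Dex at 8 h.

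The series asks whether the MS4A4A genotype changes the response, so the effect at 8 h was set against that in KO macrophages. The test called 4298 genes in KO cells (38.5%) and 4131 in WT cells (37.0%). The difference of the effects, KO minus WT, was called for 0 of 11160 genes (0.0%) by edgeR, with 133 genes at an unadjusted p under 0.05, and for 0 by DESeq2, with 139. The main fit does not use the replicate numbers, so spread shared by same-numbered libraries stays in its SE and p-values. In the blocked fit the difference was called for 0 genes, with 256 at an unadjusted p under 0.05. The median SE of this difference was 0.17 on the log2 scale, and a gene whose difference was not called is not shown to respond alike. All 24 genes of the highest and lowest fold changes in WT cells were called in the same direction in KO cells. The fitted differences ranged from -3.35 to 0.71 among the 12 highest and from -0.93 to 0.87 among the 12 lowest, and none of them was called. Several of the 12 highest had few or no vehicle counts, Hif3a, Lyve1 and Angptl7 among them, so their fitted differences are uncertain. The difference of Amica1, the highest of the 12, was 0.71 ± 1.05. Fkbp5 had a log2 fold change of 6.16 in KO cells and 6.21 in WT cells (difference -0.04 ± 0.41), and Tnf -2.92 in KO cells and -2.94 in WT cells (difference 0.02 ± 0.30). Mertk had 1.42 in KO cells and 1.33 in WT cells (difference 0.10 ± 0.18), and Cd163 3.36 in KO cells and 2.86 in WT cells (difference 0.50 ± 0.45). The targeted gene, Ms4a4a, averaged 390.2 ± 29.4 CPM with Dex and 28.9 ± 5.54 CPM with vehicle in KO cells, against 631 ± 30.2 CPM with Dex and 72.9 ± 6.61 CPM with vehicle in WT cells (SD, n = 3 each). Its counts were lower in KO cells but not absent, and the labels do not say which part of the gene was deleted.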

How the data were processed

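Total RNA was measured by RNA-seq with an mRNA library kit (SMART-Seq mRNA LP), per the labels. The submitters' processing notes name the build GRCm38 and the tools Salmon, HISAT2 and fastp, without versions. The authors deposited unscaled expected counts in 1 table (11160 genes, 42 libraries), in which 69.5% of 468720 values were within 0.01 of a whole number. Genes outside it were not analysed here, and the use of strand in counting is not stated. No column was left unused.

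Expected counts were rounded and fitted with edgeR 4.0.16 (R 4.3.3, limma 3.58.1) with a mean for each of 14 groups in the 42 libraries, TMM factors (0.950 to 1.035), filterByExpr (0 genes removed), the quasi-likelihood F test and Benjamini-Hochberg adjustment over 11160 genes, called at an adjusted p of 0.05. This fit has no replicate term and leaves 28 residual degrees of freedom. The SE is the log2 fold change divided by the square root of F. CPM were scaled by the total count of each library times its TMM factor. The median SE of the 8 h effect was 0.12. The replicate numbers come from the titles and were taken as pairs in the blocked fit. Deviations from the group means of same-numbered Dex and vehicle libraries at 8 h correlated over genes at 0.435, 0.353 and 0.294, those of other numbers at -0.24 to -0.094. Deviations within a group sum to 0, so positive values for matched numbers make those of other numbers negative on average. The script was tested on simulated data.

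The comparison, the gene lists and the genes to name were chosen with earlier results of these data known, so no list is independent evidence, and no set test was run. Named genes are the 12 highest and 12 lowest log2 fold changes among called genes with a mean of 5 CPM in a group and no overlap, up to 4 members per list with the lowest p, members called against their list's direction, a few targets, and the 4 highest and 4 lowest called differences of effects. Symbols and places come from GENCODE M21 (GRCm38). Each result was recomputed without the filter, with a minimum of 5 CPM, under median-ratio factors, in DESeq2 1.42.0, with a replicate block, with the compared libraries alone and without each replicate. Some genes that the rule names are not reported here.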

Additional observations from a re-analysis of the deposited data

Results flagged for a closer look

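Differences of the Dex effect between times in WT macrophages were called for 1980 genes (8 h minus 2 h) and 1342 genes (24 h minus 8 h) by edgeR's quasi-likelihood test of the difference itself. Among genes with at least 5 CPM in a group, the largest positive differences of 8 h minus 2 h were those of Hif3a (6.96 ± 1.56 on the log2 scale, ± SE), Angptl7 (6.41 ± 0.97), Cyp2ab1 (4.99 ± 0.99) and Hp (4.63 ± 0.65). The fitted value of Hif3a depends on the prior count, since its vehicle libraries at 8 h hold 0 counts. Among the largest negative ones were those of Gpr176 (-2.74 ± 0.33), Pde1c (-2.72 ± 0.39) and Dach1 (-2.63 ± 0.30). For 24 h minus 8 h the largest positive differences were those of Saa3 (2.995 ± 0.47), Ly6c2 (2.82 ± 0.25), Chil3 (2.60 ± 0.55) and Mmp8 (1.74 ± 0.21). The largest negative ones were those of Angptl7 (-4.04 ± 0.84), Esco2 (-3.15 ± 0.27), E2f7 (-3.15 ± 0.51) and Rrm2 (-3.002 ± 0.29). Both differences use the same 8 h libraries. With 3 libraries per group, no test for single outlying libraries was made.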

How the results depend on the processing

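The count of genes changed by Dex at 8 h in WT macrophages was 4131, and it was 4277 with DESeq2, 4163 with median-ratio scaling, 4131 with no filter, 3707 with a minimum of 5 CPM, 4939 with the replicate block and 4498 with the compared libraries alone. Of the calls, 4081 were shared with DESeq2 and 4080 with the replicate block. Leaving out each of the 6 libraries in turn gave 3502 to 3768 calls. The count for 8 h minus 2 h (1980) was 2175 with DESeq2, 2849 with the replicate block and 1600 to 1866 when each replicate was left out. The count for 24 h minus 8 h (1342) was 2046 with the replicate block, 1505 with DESeq2 and 1061 to 1324 when each replicate was left out; the cause of the higher count with the block was not tested. KO minus WT stayed at 0 calls under all of these edgeR and DESeq2 alternatives, with 94 to 196 genes at an unadjusted p under 0.05 when each replicate was left out.

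The replicate block pairs Dex and vehicle libraries of the same number and leaves 12 residual degrees of freedom. Of 528 counts of list members under the alternatives, 486 stayed within 1.5 times and 42 did not. The counts of named genes here cover genes named in the text. Genes that the rule names but the text leaves out are not covered, and some of these had calls near the threshold. No named gene changed direction where the main fit or the alternative called it. Sign changes of genes called in neither fit, and missing values, were not counted. The fit with a minimum of 5 CPM lacked 28 of the named genes. No named gene lost its call under DESeq2, the other scaling, the replicate block or the compared libraries alone. When single replicates were left out, 15 of 211 named genes called lost their call at least once. With the block, Ltf (-1.22) and Rrm2 (0.35), which were not called, passed the threshold. Rrm2 also passed it with the compared libraries alone (0.36), and Ppbp did without the vehicle library of replicate 1 (1.32). Depth limits genes near the floor of 3 counts per library, and all intervals of counts cover counting error only.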

Other observations

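By summed CPM, the change was carried by abundant genes as well as by the steep responders. The genes called higher together held 224880 CPM with Dex and 138084 CPM with vehicle, and the genes called lower 181572 CPM with Dex and 256440 CPM with vehicle. The following genes were chosen for the size of their change in CPM, after their values were seen. Sepp1, the selenium carrier selenoprotein P, gained most, with 5042, 4768 and 5059 CPM in the Dex libraries and 2513, 2323 and 2435 CPM in the vehicle libraries. Serinc3, a membrane protein that restricts retroviral infectivity, had 2777, 2805 and 2974 CPM with Dex and 838, 872 and 828 CPM with vehicle. Ucp2, a mitochondrial uncoupling protein, had 2142, 2104 and 2317 CPM with Dex and 822, 880.0 and 876 CPM with vehicle, and the stress gene Trp53inp1 had 999.8, 1039 and 1110.0 CPM with Dex and 141, 159 and 163 CPM with vehicle. In these 4 the groups did not overlap. Among the losses, Lgals3, the lectin galectin 3, had 3765, 3838 and 3552 CPM with Dex and 6297, 6631 and 5586 CPM with vehicle. Lcp1, the actin bundler plastin, had 988, 867 and 999 CPM with Dex and 2060.1, 1856 and 1947 CPM with vehicle, and Mmp12, the macrophage elastase, had 1012, 763 and 594 CPM with Dex and 2001, 1543 and 1255 CPM with vehicle. Ftl1, the ferritin light chain, had 17934, 19678 and 19594 CPM with Dex and 22826, 24082 and 22479.9 CPM with vehicle, and its values are uncertain because near-identical copies can share its reads. The call of Ftl1 was lost without the Dex library of replicate 1 (-0.24), and that of Mmp12 without the Dex library of replicate 3 (-0.85) or the vehicle library of replicate 1 (-0.82).

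A small set of 34 genes was called in opposite directions at 8 h and at 2 h, which is 0.823% of the calls at 8 h and 3.38% of those at 2 h. The members named here were chosen after their values were seen, except Bcl3, Btg1 and Tfec. Bcl3 had log2 fold changes of 0.58 at 8 h and -1.09 at 2 h, with a difference of 1.67 ± 0.17. Btg1 had 1.18 and -0.57 (difference 1.75 ± 0.19), and Tfec, a relative of Mitf, 0.76 and -0.30 (difference 1.06 ± 0.13). All 3 were higher at 8 h and lower at 2 h relative to vehicle. The vehicle level of Bcl3 and Btg1 was itself highest at 2 h. Bcl3 averaged 27.6 CPM with vehicle at 2 h, 16.4 CPM with vehicle at 8 h and 15.9 CPM in untreated cells. Btg1 averaged 244, 189 and 184 CPM in the same groups. With Dex at 2 h the means were 12.9 CPM for Bcl3 and 164 CPM for Btg1. The MAP kinase phosphatase gene Dusp6 went the other way, with -0.65 at 8 h and 1.05 at 2 h (difference -1.70 ± 0.29), as did Amd1, an enzyme of polyamine synthesis, with -0.60 and 0.95 (difference -1.55 ± 0.13), and Gpr183, an oxysterol receptor, with -0.53 and 0.76 (difference -1.28 ± 0.19). The call of Dusp6 at 8 h was lost without the Dex library of replicate 2 (-0.55) or the vehicle library of replicate 1 (-0.49).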
